A study of Mus musculus with 6 samples.

Results

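Interferon-stimulated antiviral genes were examined in whole embryos of the mouse at embryonic day 9.5, as labelled, that were homozygous for a knockout of Lphn2 or wild type. The set was defined by gene symbol, as 37 genes that type I interferon induces together with their STAT and IRF regulators, and all 37 were present among the 24421 symbols of the deposited count tables. The 3 Lphn2 knockout libraries and 3 wild type libraries are all of the C57BL/6N strain. Lphn2, listed in the tables as Adgrl2, codes for latrophilin-2, a cell surface receptor of the adhesion family. The labels do not say how the allele was made or what part of the gene it removes. They also do not say whether a library came from 1 embryo, so a p-value here reflects only how far these libraries spread, and some of that spread may be technical. RNA was read as tags from the 3' ends of transcripts, with total counts of 14476809 to 23887717 in knockout and 18352150 to 36213611 in wild type libraries. Levels are given as CPM, counts scaled to a common library total, after TMM scaling, which evens out differences in library composition.

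Interferons are secreted proteins that alert cells to viral infection. Type I interferons bind the receptor of Ifnar1 and Ifnar2, whose Janus kinases activate STAT proteins. These join IRF9 in a complex that binds the interferon-stimulated response element (ISRE) and switches on genes whose products recognise viral RNA, degrade it or block entry and release of virus. Interferon gamma signals through its own receptor and STAT dimers, which bind a shorter element named GAS. Many of these genes have a basal level in leukocytes without infection, and natural killer cells of the pregnant uterus are a known source of interferon gamma in the mouse.

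The ISRE core is shown first, since it is the shared control sequence by which many of these genes are known. Promoter windows of 300 bases, 250 before and 50 after the transcription start, were taken from RefSeq on GRCm38.p6, the build also called mm10, and 29 of the 37 genes had at least 1 window. The core was searched on both strands as GAAA, any 2 bases and GAAA again, and the GAS core as TTCNNNGAA, which reads the same on both. Overlapping cores were counted separately. An ISRE core was found in 13 of the 29 genes (44.8%), against 3.66% of the 10395 tested genes with a window and 3.99% of all 27025 genes with one. A GAS core was found in 10 of the 29 genes (34.5%), against 8.33% of the tested genes. A match describes letters and not a bound site, and no test was made. The stretches below are 60 bases long, lie wholly before the start, read 5′ to 3′ along the gene and carry the ISRE core, or a run of overlapping cores, in capitals. They are shown for all 10 genes with a core wholly before the start.
Isg15, chr4:156200850-156200909, minus strand: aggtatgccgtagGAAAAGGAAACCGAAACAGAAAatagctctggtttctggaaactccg
Ifit1, chr19:34640779-34640838, plus strand: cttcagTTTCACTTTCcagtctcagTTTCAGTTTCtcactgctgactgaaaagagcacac
Ifit3, chr19:34583382-34583441, plus strand: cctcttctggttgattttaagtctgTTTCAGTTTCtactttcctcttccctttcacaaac
Bst2, chr8:71537562-71537621, minus strand: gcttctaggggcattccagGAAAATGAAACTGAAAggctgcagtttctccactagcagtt
Stat2, chr10:128270251-128270310, plus strand: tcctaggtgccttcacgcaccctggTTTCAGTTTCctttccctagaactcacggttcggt
Oas1a, chr5:120907526-120907585, minus strand: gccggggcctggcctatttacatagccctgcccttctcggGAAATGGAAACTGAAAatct
Oas1g, chr5:120887614-120887673, minus strand: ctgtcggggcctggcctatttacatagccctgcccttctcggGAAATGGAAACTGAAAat
Oas3, chr5:120777700-120777759, minus strand: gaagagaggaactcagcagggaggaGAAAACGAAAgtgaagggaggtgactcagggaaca
Ifitm2, chr7:140955973-140956032, minus strand: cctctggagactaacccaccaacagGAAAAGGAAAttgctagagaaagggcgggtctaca
Rsad2, chr12:26456538-26456597, minus strand: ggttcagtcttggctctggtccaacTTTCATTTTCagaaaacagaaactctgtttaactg
In Isg15 the capitals hold 3 overlapping cores, the one nearest to the start beginning 66 bases before it. Ifit1 has 2 separate cores, the nearer beginning 85 bases before the start, and both read as the reverse complement. Oas1a and Oas1g carry the same run of 2 overlapping cores beginning close to the start.

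Before the results, the contents of the libraries need stating. The labelled whole embryo was checked against defining genes. Prl8a2, the decidual prolactin-related protein of the maternal uterine lining, stood at 2900.0, 1279 and 5335 CPM in replicates 1 to 3 of the knockout, against 14989, 28746 and 17981 CPM in replicates 1 to 3 of the wild type. Nkx2-5, a heart regulator, stood at 0 CPM in all 3 knockout libraries and at most 0.523 CPM in wild type, and the troponin gene Tnnt2 stood at 13.1, 2.40 and 14.8 CPM in the knockout libraries and 46.3, 29.6 and 137 CPM in the wild type libraries. Prl8a2 and Tnnt2 lay lower in knockout without overlap (edgeR adjusted p = 0.166 and 0.194, DESeq2 adjusted p = 9.81e-07 and 0.00141). Since Prl8a2 is known from the maternal decidua, both groups held maternal RNA, and the values below cannot be assigned to embryo or mother. In such mixed tissue, a change in the number of cells of a type and in the RNA per cell cannot be told apart. Adgrl2 itself stood at 5.49, 1.67 and 2.78 CPM in replicates 1 to 3 of the knockout, against 10.9, 7.56 and 16.0 CPM in replicates 1 to 3 of the wild type. Its groups did not overlap (log2 fold change -1.78 ± 0.50 SE, edgeR adjusted p = 0.194, DESeq2 adjusted p = 0.0203). Tags from the 3' end can lie outside the deleted part, so this does not check the genotype labels. The description codes begin with 32 for wild type replicate 1 and with 45 for the other 5 libraries, and the meaning of the code is not stated.

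Interferon-stimulated genes stood higher in the knockout libraries nearly throughout, but no single gene passed the test. Mx1 was too low to be tested, and of the other 36 genes 35 had a positive log2 fold change of knockout over wild type, against 46.6% of all genes tested. The median was 1.04, against -0.04 over all 13848 genes tested. In 27 of the 36 genes (75.0%) all 3 knockout values lay above all 3 wild type values, against 12.1% of all genes tested, and in 0 they lay below, against 9.39%. By edgeR's quasi-likelihood test with Benjamini-Hochberg adjustment over all genes, 0 of the 36 passed 0.05, against 0% of all genes called higher and 0.0505% called lower. The adjusted p ranged from 0.166 to 0.726. At an unadjusted p under 0.05, 27 of the 36 were higher (75.0%), against 8.68% of all genes, and 0 were lower, against 6.86%. DESeq2, run as an alternative, called 13 of the 36 higher (36.1%) and 0 lower, against 3.39% and 2.79% of all genes, and limma-voom called 0, against 0% called higher. Without knockout replicate 1, edgeR called 6 higher, Irf7, Ifitm1, Ifitm3, Usp18, Rtp4 and Lgals3bp, and 0 lower, against 2.09% and 3.81% of all genes. These genes are known to be induced together, so they are not independent observations.

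The order of the libraries was much the same from gene to gene. Relative to the wild type mean, the median of the 36 genes lay at 0.60, 1.26 and 1.12 (log2) in knockout replicates 1, 2 and 3 and at 0.04, 0.35 and -0.38 in wild type replicates 1, 2 and 3. Over all tested genes these medians stayed between -0.01 and 0.02. Knockout replicate 1 was the lowest knockout library in 31 of the 36 genes, against 40.9% of all genes, and replicate 2 was the highest in 29, against 30.7%. Wild type replicate 3 was the lowest wild type library in 30 of the 36, against 36.3% of all genes, and replicate 2 the highest in 28, against 36.2%. The knockout libraries therefore did not form a tight group for these genes, and knockout replicate 1 lay nearest to wild type replicate 2.

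**Figure D1:**
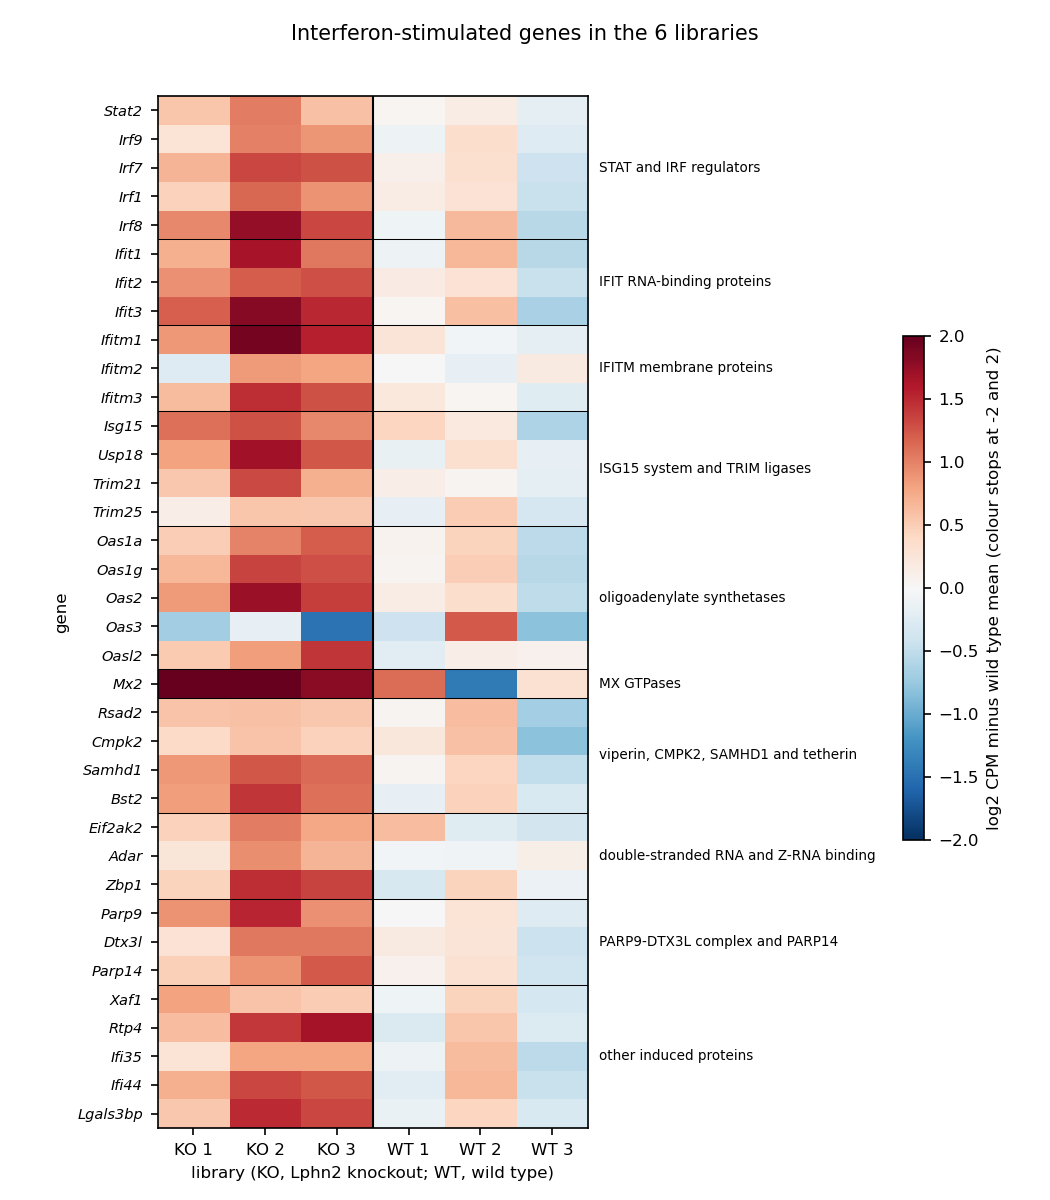
Heat map of log2 CPM minus the wild type mean for the 36 tested genes (rows, grouped by role) in the 3 Lphn2 knockout and 3 wild type libraries (columns), with colour ending at -2 and 2. Knockout replicates 2 and 3 are the warmest columns (medians 1.26 and 1.12), knockout replicate 1 is paler (0.60), and wild type replicate 3 is the coolest (-0.38).

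The transcription factors that carry the interferon signal were examined first. Stat2, a subunit of the ISRE-binding complex, stood at 6.35, 8.87 and 6.56 CPM in replicates 1 to 3 of the knockout, against 4.42, 4.81 and 3.79 CPM in replicates 1 to 3 of the wild type. Irf9, the DNA-binding subunit of that complex, stood at 107, 179 and 162 CPM in replicates 1 to 3 of the knockout, against 82.8, 113 and 74.1 CPM in replicates 1 to 3 of the wild type. The groups did not overlap for Stat2 but did for Irf9, where knockout replicate 1 lay below wild type replicate 2. Irf7, which amplifies interferon alpha production, stood at 49.5, 78.0 and 74.6 CPM in replicates 1 to 3 of the knockout, against 33.0, 38.8 and 23.1 CPM in replicates 1 to 3 of the wild type, with no overlap and a log2 fold change of 1.09 ± 0.26 SE (edgeR adjusted p = 0.173, DESeq2 adjusted p = 0.0108). Irf1, a factor induced by interferon gamma, stood at 113, 182 and 154 CPM in replicates 1 to 3 of the knockout, against 91.5, 101 and 60.7 CPM in replicates 1 to 3 of the wild type. Irf8, which directs myeloid cell fates and is also induced by interferon gamma, stood at 160.5, 279 and 208 CPM in replicates 1 to 3 of the knockout, against 77.9, 129 and 56.2 CPM in replicates 1 to 3 of the wild type. Neither Irf1 nor Irf8 overlapped between groups, and wild type replicate 3 was the lowest library for both. The log2 fold change of Irf8 was 1.30 ± 0.35 SE (edgeR adjusted p = 0.184, DESeq2 adjusted p = 0.00968), and those of Stat2, Irf9 and Irf1 were 0.74, 0.73 and 0.83, past the threshold in neither test. The 6 counts of Irf7 and Irf9 were multiples of 3 and those of Irf8 of 2, so their counting error may be larger than the counts show.

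The IFIT genes, which lie side by side on chromosome 19 (mm10, Ifit2 from 34550694 and Ifit1 to 34650009), encode proteins that bind viral RNA. Ifit1, whose protein recognises RNA without the host's cap methylation, stood at 9.80, 18.8 and 12.4 CPM in replicates 1 to 3 of the knockout, against 5.54, 9.44 and 3.998 CPM in replicates 1 to 3 of the wild type. Ifit2 stood at 6.55, 8.00 and 8.48 CPM in replicates 1 to 3 of the knockout, against 3.84, 4.20 and 2.48 CPM in replicates 1 to 3 of the wild type. Ifit3 stood at 39.1, 60.7 and 48.5 CPM in replicates 1 to 3 of the knockout, against 17.6, 25.9 and 10.9 CPM in replicates 1 to 3 of the wild type. All 3 genes had every knockout library above every wild type library, with the lowest value in wild type replicate 3 each time. Ifit3 had a log2 fold change of 1.45 ± 0.34 SE (edgeR adjusted p = 0.172, DESeq2 adjusted p = 0.00440), while Ifit1 and Ifit2 had 1.12 and 1.13 and passed neither test. Ifit3b, a close copy of Ifit3 named outside the rule for naming genes, stood at 19.3 ± 3.17 CPM in knockout and 7.80 ± 2.41 CPM in wild type libraries (SD, n = 3 each), and reads shared between the copies make both values uncertain.

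IFITM proteins sit in membranes and hinder the fusion of viruses with the cell. Ifitm1 (mm10 chromosome 7, 140967221 to 140969825, plus strand) had the smallest p of the set and stood at 35.9, 74.3 and 58.3 CPM in replicates 1 to 3 of the knockout, against 23.6, 18.9 and 17.1 CPM in replicates 1 to 3 of the wild type. Its groups lay well apart, with a log2 fold change of 1.50 ± 0.29 SE, a fold of 2.82 (edgeR adjusted p = 0.166, DESeq2 adjusted p = 0.000517). The 6 counts of Ifitm1 were multiples of 2, so their counting error may be larger than the counts show. Ifitm3 (mm10 chromosome 7, 141009586 to 141010770, minus strand), known in the mouse as fragilis and expressed around the founding of the germ line, stood at 115, 207 and 179 CPM in replicates 1 to 3 of the knockout, against 86.0, 76.4 and 62.6 CPM in replicates 1 to 3 of the wild type. Here too the groups did not overlap, at 1.16 ± 0.25 SE (edgeR adjusted p = 0.166, DESeq2 adjusted p = 0.00242). Ifitm2 (mm10 chromosome 7, 140954837 to 140955987, minus strand) differed from its neighbours in having knockout replicate 1 as its lowest library, with means of 17.6 ± 6.58 CPM in knockout and 12.1 ± 1.48 CPM in wild type libraries (SD, n = 3 each). It had a log2 fold change of 0.54 that turned to -0.27 with knockout replicate 1 alone against wild type, and in neither case passed.

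**Figure D2:**
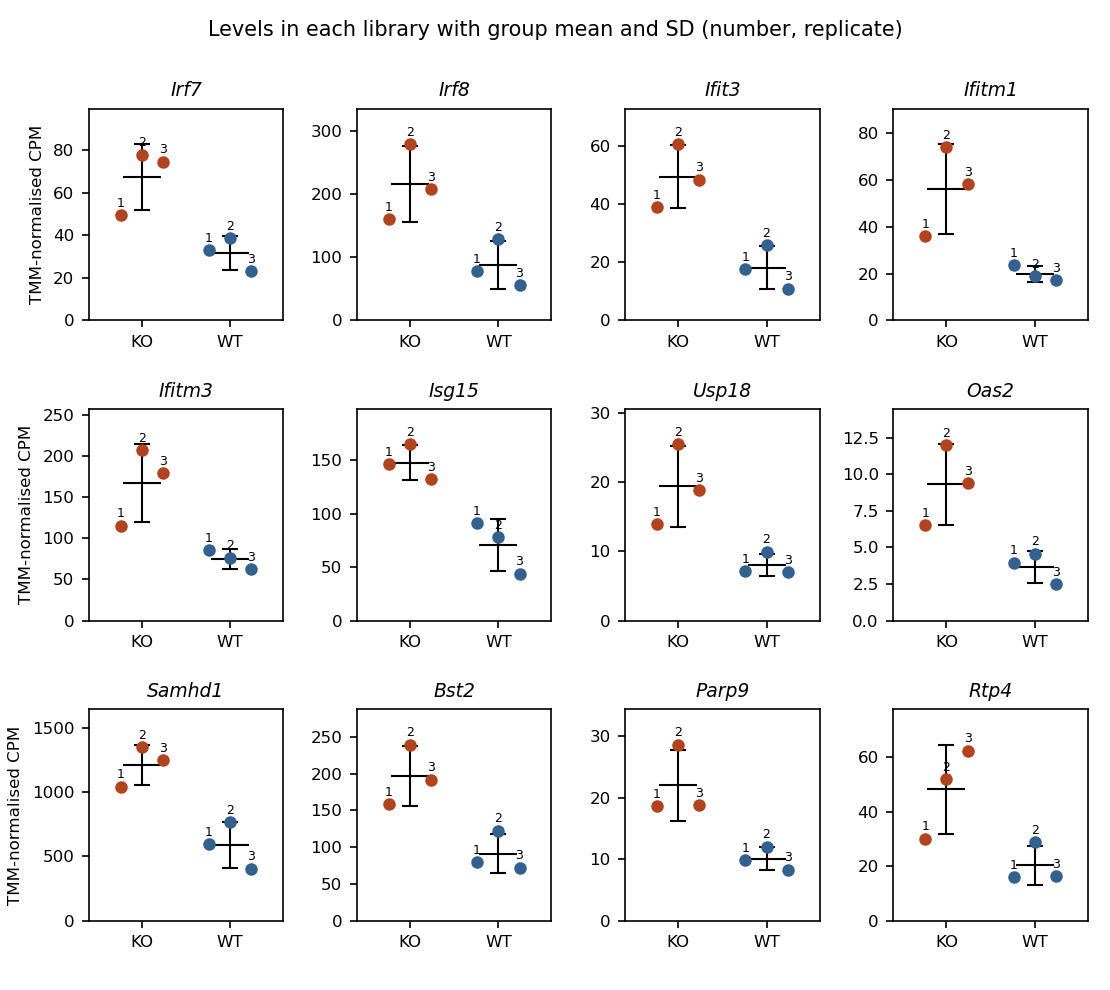
TMM-normalised CPM of 12 interferon-stimulated genes in the 3 knockout (left) and 3 wild type (right) libraries of each panel, with replicate numbers, group means and SD (n = 3 each), on axes from 0. The genes shown are 12 of the 13 that DESeq2 called higher in these data, so the panels do not stand for the set, in which 9 of the 36 tested genes overlapped between groups. In each panel the knockout points lie above the wild type points, as for Ifitm1 (35.9 to 74.3 against 17.1 to 23.6 CPM), and knockout replicate 1 is the lowest knockout point in all panels except Isg15, where replicate 3 is.

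The ISG15 system attaches a ubiquitin-like tag to proteins. Isg15, the tag itself (mm10 chromosome 4, 156199424 to 156200818, minus strand), whose promoter carries the 3 overlapping ISRE cores shown above, stood at 146, 165 and 132 CPM in replicates 1 to 3 of the knockout, against 91.0, 77.8 and 43.9 CPM in replicates 1 to 3 of the wild type. Its groups did not overlap, with a log2 fold change of 1.06 ± 0.28 SE (edgeR adjusted p = 0.183, DESeq2 adjusted p = 0.0144). Usp18, the protease that removes the tag and restrains the interferon receptor, stood at 13.9, 25.5 and 18.8 CPM in replicates 1 to 3 of the knockout, against 7.14, 9.93 and 7.03 CPM in replicates 1 to 3 of the wild type. Every knockout value of Usp18 lay above wild type, at 1.27 ± 0.30 SE (edgeR adjusted p = 0.172, DESeq2 adjusted p = 0.0105). Trim21, a ubiquitin ligase that binds antibodies inside the cell, stood at 6.75, 11.6 and 7.56 CPM in replicates 1 to 3 of the knockout, against 5.07, 4.75 and 4.02 CPM in replicates 1 to 3 of the wild type, again without overlap, but passed neither test. Trim25, a ubiquitin ligase of the RIG-I pathway, overlapped between groups, at 79.3 ± 12.6 CPM in knockout and 61.4 ± 20.3 CPM in wild type libraries (SD, n = 3 each; log2 fold change 0.37).

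Oligoadenylate synthetases sense double-stranded RNA, and the products of the active enzymes switch on RNase L. Oas2 had the smallest p of this family and stood at 6.51, 12.0 and 9.41 CPM in replicates 1 to 3 of the knockout, against 3.95, 4.57 and 2.48 CPM in replicates 1 to 3 of the wild type. Its groups did not overlap (log2 fold change 1.35 ± 0.37 SE, edgeR adjusted p = 0.190, DESeq2 adjusted p = 0.0400). Oas1g stood at 7.45, 12.0 and 11.5 CPM in replicates 1 to 3 of the knockout, against 4.85, 6.58 and 3.14 CPM in replicates 1 to 3 of the wild type, and Oas1a at 4.94, 7.07 and 8.20 CPM in replicates 1 to 3 of the knockout, against 3.70, 4.81 and 2.40 CPM in replicates 1 to 3 of the wild type. Oas1a and Oas1g are members of one tandem array of near-identical genes on chromosome 5, so reads could be split between them and each value is uncertain. Oasl2, an OAS-like gene with ubiquitin-like domains, stood at 7.61, 9.47 and 14.3 CPM in replicates 1 to 3 of the knockout, against 4.49, 5.73 and 5.59 CPM in replicates 1 to 3 of the wild type. These 3 genes did not overlap between groups and had log2 fold changes of 1.09, 0.89 and 0.99, not past the threshold. Oas3 was the only one of the 36 with a negative value, -1.07, from raw counts of 11, 10 and 3 in knockout and 15, 31 and 15 in wild type replicates 1, 2 and 3. Without wild type replicate 2 the value was -0.09. The difference was within the spread (edgeR adjusted p = 0.597), and an ISRE core lies in its window.

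The MX genes encode GTPases that trap viral components, and C57BL/6 mice are known to carry a defective Mx1. Mx1 had 0, 6 and 0 counts in knockout and 0, 12 and 0 counts in wild type replicates 1, 2 and 3, too few to be tested. Mx2, which the annotation lists as a polymorphic pseudogene, was low and varied widely, at 3.92, 5.07 and 2.99 CPM in replicates 1 to 3 of the knockout, against 1.81, 0.244 and 0.993 CPM in replicates 1 to 3 of the wild type. Its groups did not overlap, and its log2 fold change of 1.95 ± 0.69 SE did not pass (edgeR adjusted p = 0.257, DESeq2 adjusted p = 0.100). The value depended on single libraries, at 1.51 without wild type replicate 2, which holds 4 counts, and 2.64 without wild type replicate 1.

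Enzymes of nucleotide supply and a protein that tethers virus to the cell surface formed the next group. Samhd1, which degrades the nucleotides that reverse transcription needs, stood at 1043, 1349.8 and 1247 CPM in replicates 1 to 3 of the knockout, against 594, 768 and 405 CPM in replicates 1 to 3 of the wild type. Bst2, tetherin, which holds budding virus at the membrane, stood at 159, 239 and 192 CPM in replicates 1 to 3 of the knockout, against 79.7, 122 and 72.0 CPM in replicates 1 to 3 of the wild type. For both, every knockout library lay above every wild type library, with log2 fold changes of 1.04 ± 0.26 and 1.11 ± 0.26 SE (edgeR adjusted p = 0.176 and 0.172, DESeq2 adjusted p = 0.00729 and 0.00589). Rsad2, viperin, which makes a chain-terminating nucleotide, and its neighbour Cmpk2, which supplies the precursor, overlapped between groups. Rsad2 stood at 41.5 ± 0.711 CPM in knockout and 29.9 ± 12.7 CPM in wild type libraries, and Cmpk2 at 3.24 ± 0.206 CPM in knockout and 2.51 ± 1.14 CPM in wild type libraries (SD, n = 3 each). The 3 knockout libraries hardly differed in Rsad2 (40.7 to 42.1 CPM), while wild type replicate 2 reached 42.9 CPM, and neither gene passed a test. Whether Rsad2 and Samhd1 differ from each other in their change was not tested.

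Genes that sense or edit double-stranded RNA were next. Adar, which converts adenosine to inosine, stood at 58.8, 94.2 and 79.8 CPM in replicates 1 to 3 of the knockout, against 47.8, 47.3 and 54.1 CPM in replicates 1 to 3 of the wild type. Zbp1, a sensor of Z-form RNA that triggers cell death, stood at 4.67, 9.67 and 8.91 CPM in replicates 1 to 3 of the knockout, against 2.72, 4.69 and 3.14 CPM in replicates 1 to 3 of the wild type. Adar did not overlap between groups, whereas for Zbp1 knockout replicate 1 lay just below wild type replicate 2. Their log2 fold changes were 0.64 and 1.14, and neither passed a test. Eif2ak2, the kinase PKR that halts translation, overlapped between groups at 9.76 ± 1.91 CPM in knockout and 5.95 ± 2.39 CPM in wild type libraries (SD, n = 3 each), with wild type replicate 1 above knockout replicate 1.

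Parp9 and Dtx3l encode partners in a ubiquitin ligase complex that acts in interferon signalling, and their annotated exons overlap on opposite strands of chromosome 16. Since the handling of strand is not given, reads in that overlap cannot be told apart. Parp9 stood at 18.5, 28.6 and 18.7 CPM in replicates 1 to 3 of the knockout, against 9.85, 12.0 and 8.28 CPM in replicates 1 to 3 of the wild type, and Dtx3l at 21.4, 36.5 and 36.4 CPM in replicates 1 to 3 of the knockout, against 19.9, 20.96 and 13.0 CPM in replicates 1 to 3 of the wild type. Parp14, a related ADP-ribosyltransferase, stood at 9.22, 12.3 and 15.5 CPM in replicates 1 to 3 of the knockout, against 6.99, 8.17 and 4.96 CPM in replicates 1 to 3 of the wild type. None of the 3 genes overlapped between groups. Parp9 had a log2 fold change of 1.13 ± 0.27 SE (edgeR adjusted p = 0.172, DESeq2 adjusted p = 0.0134), and Dtx3l and Parp14, at 0.81 and 0.88, passed neither test.

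The last group held induced genes of mixed function. Rtp4, a receptor-transporting protein that also restricts some viruses, stood at 30.2, 52.1 and 62.5 CPM in replicates 1 to 3 of the knockout, against 16.0, 28.8 and 16.3 CPM in replicates 1 to 3 of the wild type. Lgals3bp, a secreted galectin-binding glycoprotein, stood at 31.4, 60.5 and 54.6 CPM in replicates 1 to 3 of the knockout, against 19.7, 29.1 and 17.4 CPM in replicates 1 to 3 of the wild type. Both lacked overlap, at 1.25 ± 0.35 and 1.15 ± 0.31 SE (edgeR adjusted p = 0.193 and 0.187, DESeq2 adjusted p = 0.0230 and 0.0230). Ifi44 stood at 24.6, 37.8 and 35.4 CPM in replicates 1 to 3 of the knockout, against 12.9, 23.6 and 10.9 CPM in replicates 1 to 3 of the wild type. Xaf1, an antagonist of the apoptosis inhibitor XIAP, stood at 18.8, 16.0 and 15.3 CPM in replicates 1 to 3 of the knockout, against 10.1, 14.6 and 8.39 CPM in replicates 1 to 3 of the wild type. Ifi44 and Xaf1 did not overlap between groups and passed neither test, at 1.05 and 0.60. Ifi35 overlapped, at 26.7 ± 5.15 CPM in knockout and 18.1 ± 7.56 CPM in wild type libraries (SD, n = 3 each; 0.56).

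**Figure D3:**
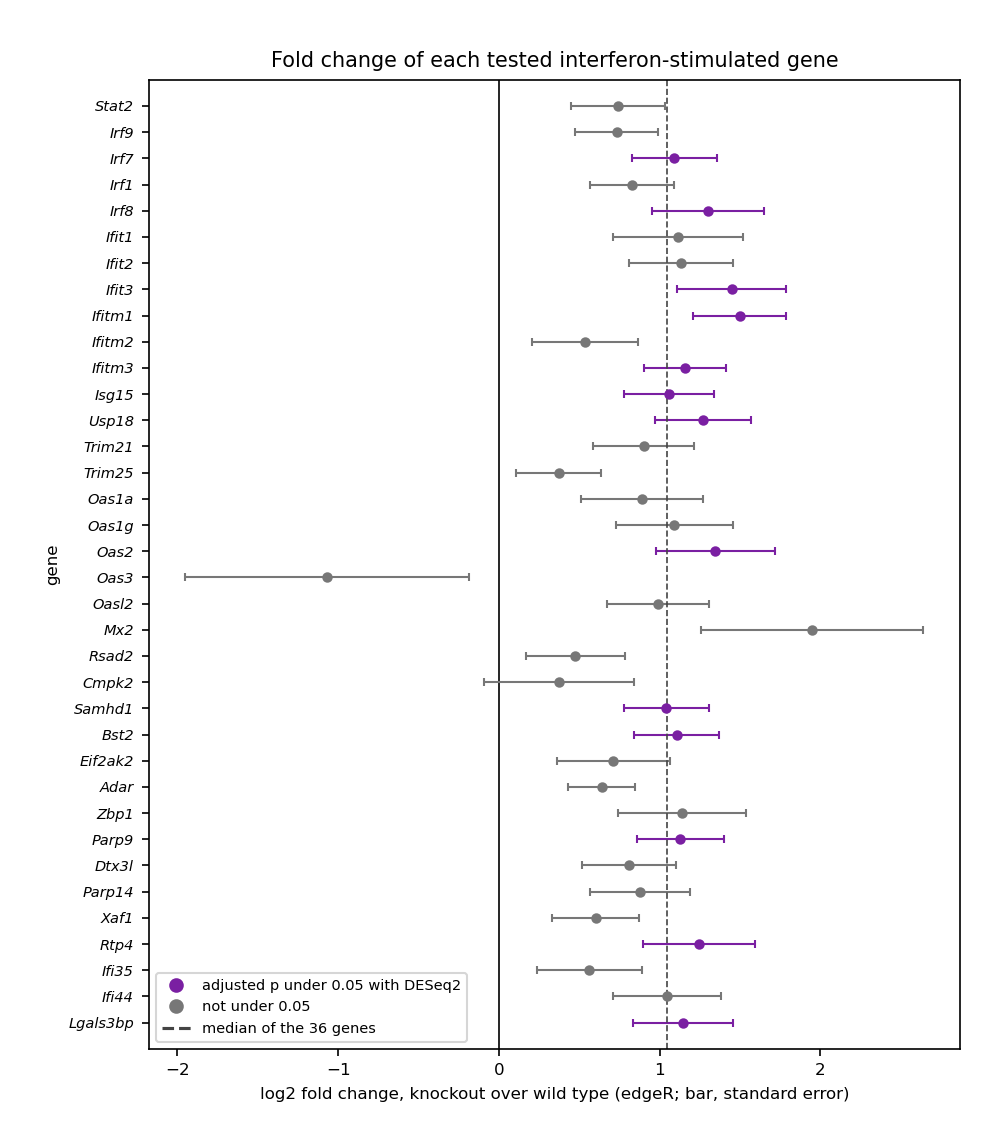
Log2 fold change of knockout over wild type (x axis, edgeR, bars are standard errors, 3 libraries per group) for the 36 tested genes (y axis). All but Oas3 lie above 0 around the dashed median of 1.04, and the 13 genes in purple had an adjusted p under 0.05 with DESeq2, whereas 0 did with edgeR.

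The genes were then set side by side by the presence of an ISRE core in the promoter window. The 13 genes with a core had a median log2 fold change of 0.90, 12 of them positive, and 9 did not overlap between groups (69.2%). The 16 with a window but no core had a median of 0.91, all positive, and 12 did not overlap (75.0%). Among tested genes outside the set, 367 with a core had a median of 0.11 and 17.4% lay higher without overlap, against -0.04 and 11.7% of 9999 genes without one. These are descriptions with no test, and the window leaves out any element farther away.

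Signalling genes upstream were then compared in the same fit. Of the 10 type I and III interferon ligands listed, 6 had 0 counts in all libraries, as did Ifng, interferon gamma, and Ifnb1 reached at most 0.109 CPM. Ifnk, a ligand of skin, was too low to be tested, at 0, 0 and 0.143 CPM in the knockout libraries and 0.362, 1.22 and 0.836 CPM in the wild type libraries. Ifne, interferon epsilon, a ligand made constitutively in the female reproductive tract, was the single ligand with enough counts to be tested, at 10.2, 11.5 and 10.7 CPM in replicates 1 to 3 of the knockout, against 4.20, 6.40 and 3.14 CPM in replicates 1 to 3 of the wild type. Its groups did not overlap (log2 fold change 1.24 ± 0.33 SE, edgeR adjusted p = 0.183, DESeq2 adjusted p = 0.0311). Among 6 receptor chains the median was 0.38. Ifnar2, of the type I receptor, stood at 22.7, 23.2 and 24.2 CPM in the knockout libraries and 22.8, 23.7 and 23.5 CPM in the wild type libraries, a log2 fold change of 0.00 ± 0.16 SE. Ifngr1, of the interferon gamma receptor, stood at 44.4, 57.7 and 53.5 CPM in replicates 1 to 3 of the knockout, against 34.8, 22.1 and 25.9 CPM in replicates 1 to 3 of the wild type (0.91, edgeR adjusted p = 0.173, DESeq2 adjusted p = 0.0155). Ifnar1 and Il10rb, next by p, had 0.36 and 0.39 and did not pass.

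The 6 Janus kinases and other STATs had a median of 0.64. Tyk2, a kinase of the type I receptor, stood at 59.6, 58.1 and 56.6 CPM in replicates 1 to 3 of the knockout, against 38.8, 36.9 and 32.1 CPM in replicates 1 to 3 of the wild type (log2 fold change 0.69 ± 0.15 SE, edgeR adjusted p = 0.167, DESeq2 adjusted p = 0.0109), and the 2 groups lay apart. Stat3, with 0.68, did not pass. Of the other IRFs, Irf5 stood at 14.3 ± 3.16 CPM in knockout and 6.26 ± 2.18 CPM in wild type libraries (SD, n = 3 each), without overlap and not past the threshold in edgeR (edgeR adjusted p = 0.194, DESeq2 adjusted p = 0.0446). Irf2 had 0.43. Negative regulators had a median of 0.23, with Socs3 at 0.77, Ptpn2 at -0.39 and Ptpn11 at 0.36.

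Sensors and adaptors had a median of 0.84 over 13 tested genes, of which 9 lay higher without overlap, against 12.1% of all genes. Tlr3, the endosomal receptor for double-stranded RNA, Tmem173, the adaptor STING, and Ddx58, RIG-I, had log2 fold changes of 1.72, 1.35 and 1.01. Tlr3 stood at 41.0, 70.7 and 56.7 CPM in replicates 1 to 3 of the knockout, against 15.0, 19.1 and 17.2 CPM in replicates 1 to 3 of the wild type, and Tmem173 at 111, 174 and 149 CPM in replicates 1 to 3 of the knockout, against 77.7, 44.8 and 48.1 CPM in replicates 1 to 3 of the wild type. Neither overlapped between groups. DESeq2 called 2 of the 13 higher, against 3.39% of all genes, and edgeR 0, with 8 higher at an unadjusted p under 0.05, against 8.68%. Targets shared with interferon gamma had medians close to that of the set, 0.995 over 12 GTPase genes and 1.04 over 10 genes of the MHC class I pathway. All 12 GTPase genes and all 10 MHC genes had positive values, against 46.6% of all genes. DESeq2 called 4 and 6 of them higher, against 3.39% of all genes, and edgeR 0, with 6 and 9 higher at an unadjusted p under 0.05, against 8.68%. The 3 GTPase genes with the smallest p were Gbp3, Iigp1 and Gbp7, at log2 fold changes of 1.01, 1.37 and 1.14, and the 3 MHC genes Tap2, Tap1 and H2-K1, at 1.70, 1.45 and 1.33. Gbp3 stood at 22.8, 30.7 and 32.5 CPM in the knockout libraries and 15.9, 12.7 and 14.0 CPM in the wild type libraries, and Tap2, of the peptide transporter, at 275, 507 and 382 CPM in the knockout libraries and 116, 139.8 and 102 CPM in the wild type libraries.

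**Figure D4:**
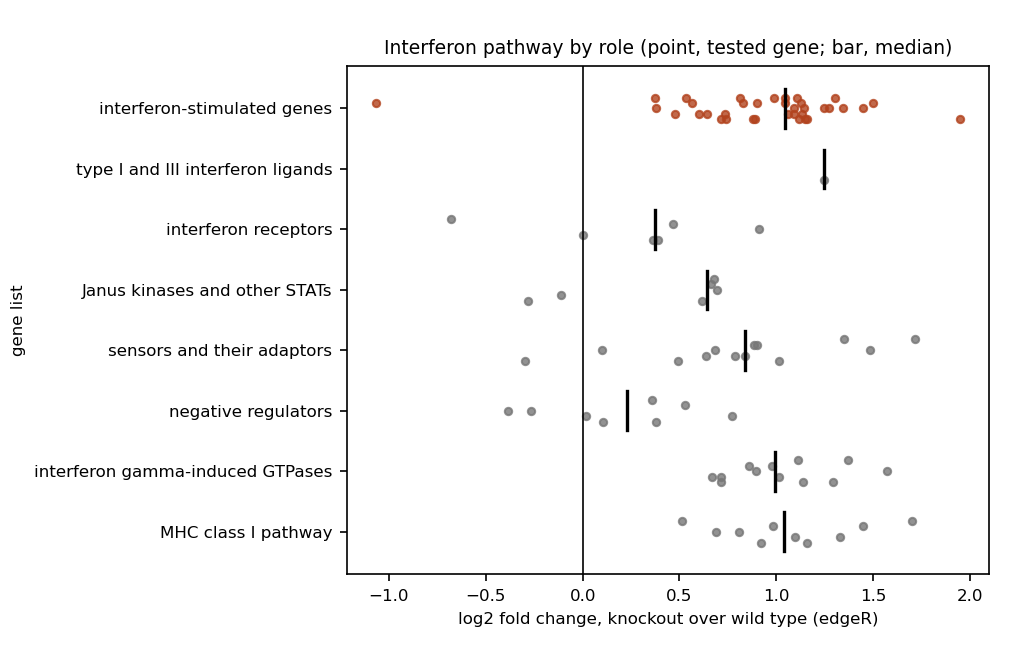
Log2 fold change of knockout over wild type (x axis, edgeR) for each tested gene of the interferon pathway by role (y axis), with bars at the medians. The interferon-stimulated genes (top, median 1.04), the GTPases (0.995) and the MHC class I pathway (1.04) lie to the right, while receptors (0.38) and negative regulators (0.23) lie nearer to 0.

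Markers of leukocytes also stood higher in the knockout libraries. All 4 general leukocyte markers lay higher without overlap, against 12.1% of all genes (median 1.32), with a summed level of 264 to 447 CPM in knockout and 90.6 to 164 CPM in wild type libraries. Ptprc, CD45, stood at 48.6, 65.2 and 49.4 CPM in replicates 1 to 3 of the knockout, against 27.5, 26.0 and 15.1 CPM in replicates 1 to 3 of the wild type (log2 fold change 1.25 ± 0.27 SE, edgeR adjusted p = 0.166, DESeq2 adjusted p = 0.00314), and Laptm5 at 146, 240.3 and 181 CPM in the knockout libraries and 88.7, 82.6 and 48.2 CPM in the wild type libraries. Of 6 natural killer cell markers, 5 lay higher without overlap, against the same 12.1% (median 1.17), at 342 to 497 CPM summed in knockout and 105 to 237 CPM in wild type. The defining markers Ncr1 and Klrb1c stood at 1.84, 4.47 and 2.99 CPM in the knockout libraries and 2.28, 0.975 and 1.49 CPM in the wild type libraries, and at 14.1, 26.0 and 15.1 CPM in the knockout libraries and 10.9, 8.90 and 2.82 CPM in the wild type libraries. Knockout replicate 2 was the highest library and wild type replicate 3 the lowest for both summed lists, as for the interferon-stimulated genes. The sum of the interferon-stimulated genes was 2408 to 3477 CPM in knockout and 1093 to 1891 CPM in wild type. The same libraries were highest and lowest for the summed endothelial and neutrophil markers and Janus kinases and other STATs. Among wild type libraries, replicate 2 was highest for the interferon-stimulated, natural killer and endothelial sums, but replicate 1 for the leukocyte sum. The part of leukocyte number in the result was not tested.

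Other cell types gave a mixed picture. Macrophage markers summed to 243 to 284 CPM in knockout and 238 to 572 CPM in wild type, with 0 of 6 higher without overlap, against 12.1% of all genes. Adgre1, F4/80, was near 0 (at most 1.57 CPM), Cd68 stood at 84.9, 119 and 117 CPM in the knockout libraries and 59.99, 99.0 and 41.5 CPM in the wild type libraries, and Csf1r was lower without overlap at 156, 58.3 and 116 CPM in the knockout libraries and 291, 442 and 166 CPM in the wild type libraries. Csf1r was the largest part of the macrophage sum in each wild type library. Of the 6 macrophage markers 4 had a positive log2 fold change and 2 a negative one, against 46.6% of all genes positive. Dendritic cell markers summed to 2.86 to 5.53 CPM in knockout and 2.74 to 3.84 CPM in wild type, with Itgax at most at 2.40 CPM and Flt3 at most at 0.145 CPM. T and B cell markers summed to at most 1.10 CPM in any library, with Cd3e and Cd3g at most at 0.333 and 0.428 CPM and Cd79a at 0 in all 6. Of the neutrophil markers, S100a8 lay higher (2139, 3840.1 and 3326 CPM in the knockout libraries and 884, 1418 and 797 CPM in the wild type libraries) and S100a9 lower (2.04, 4.27 and 2.00 CPM in the knockout libraries and 5.29, 5.97 and 15.2 CPM in the wild type libraries), both without overlap. Of 5 endothelial markers 3 lay higher without overlap, against 12.1% of all genes. Their median was 0.73 and their sum 1171 to 1679 CPM in knockout and 822 to 1508 CPM in wild type, Pecam1 standing at 779, 1219 and 1002 CPM in the knockout libraries and 711, 1172 and 638 CPM in the wild type libraries, and Cdh5 at 259.9, 281 and 259 CPM in the knockout libraries and 166, 220.0 and 97.6 CPM in the wild type libraries.

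Decidual markers summed to 3519 to 7596 CPM in knockout and 15989 to 30107 CPM in wild type, with Prl8a2 the largest part in every library. Bmp2, Pgr, Wnt4 and Hoxa10, 4 of the 6 decidual genes, lay higher without overlap, against 12.1% of all genes, and Hand2 stood at 427, 606 and 683 CPM in the knockout libraries and 340.4, 524 and 325 CPM in the wild type libraries. Markers of the conceptus lay lower in the knockout libraries, except that trophoblast sums overlapped, knockout replicate 1 lying above wild type replicate 3. Trophoblast markers summed to 33.4 to 2525 CPM in knockout and 847 to 3978 CPM in wild type, and yolk sac markers to 3.93 to 109 CPM in knockout and 236 to 406 CPM in wild type. Embryonic heart markers summed to 3.93 to 16.2 CPM in knockout and 35.9 to 241 CPM in wild type. For neural progenitor markers the sums were 7.20 to 7.84 CPM in knockout and 17.9 to 54.8 CPM in wild type, and for primitive red cell markers 55.1 to 734 CPM in knockout and 1377 to 2181 CPM in wild type. Summed heart, neural and yolk sac markers were highest in wild type replicate 3, the library with the lowest interferon-stimulated levels. Trophoblast and red cell sums went the other way, with replicate 3 the lowest of the wild type libraries at 847 and 1377 CPM. Tpbpa and Prl3b1, of trophoblast, had log2 fold changes of -2.61 ± 1.54 and -3.44 ± 1.83 SE and overlapped between groups, Tpbpa standing at 64.7, 0.400 and 2.00 CPM in the knockout libraries and 170.3, 206 and 36.4 CPM in the wild type libraries. Afp and Ttr, of yolk sac, had -3.10 ± 1.16 and -2.86 ± 1.44 SE, and Hbb-y and Hba-x, of red cells, -2.91 ± 1.13 and -2.79 ± 1.21 SE. Sox2 and Pax6, of neural progenitors, had -4.51 ± 1.24 and -2.28 ± 0.45 SE. Actc1, of heart, had -4.83 ± 1.23 SE, with most of its wild type level in replicate 3, at 1.80, 0.867 and 0.998 CPM in the knockout libraries and 10.6, 3.72 and 92.2 CPM in the wild type libraries. These last 7 genes lay lower without overlap between groups, against 9.39% of all genes. None of the 9 passed in edgeR (adjusted p from 0.166 to 0.455). DESeq2 called Sox2, Pax6 and Actc1 lower (adjusted p = 0.00255, 0.000475 and 0.00440), against 2.79% of all genes. The others did not pass there (DESeq2 adjusted p from 0.144 to 0.506). Without knockout replicate 1, which holds most of the trophoblast, yolk sac and globin RNA of its group, edgeR called 3 trophoblast, 4 yolk sac and 4 red cell markers lower, against 3.81% of all genes. These shares of maternal and embryonic RNA differed between the groups, apart from the overlap in trophoblast. Within the groups the lists differed in their order beside the interferon-stimulated sum. Heart sums ran in the reverse order in both groups, at 16.20, 3.93 and 16.18 CPM in knockout and 61.8, 35.9 and 241 CPM in wild type replicates 1 to 3. Yolk sac, trophoblast and red cell sums were highest of the knockout in replicate 1, where the interferon-stimulated sum was lowest. In wild type these 3 sums did not run in the reverse order. Replicate 2 had the highest interferon-stimulated sum of each group. Its decidual sum, of which Prl8a2 was the largest part, was the highest of the wild type (30107 CPM) but the lowest of the knockout (3519 CPM). Each of the other decidual genes was lowest of the knockout in replicate 1 and highest of the wild type in replicate 2, as was the interferon-stimulated sum. Hoxa10, for example, stood at 668, 1013 and 957 CPM in the knockout libraries and 470, 521 and 287 CPM in the wild type libraries. The part of these shares in the result was not tested.

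**Figure D5:**
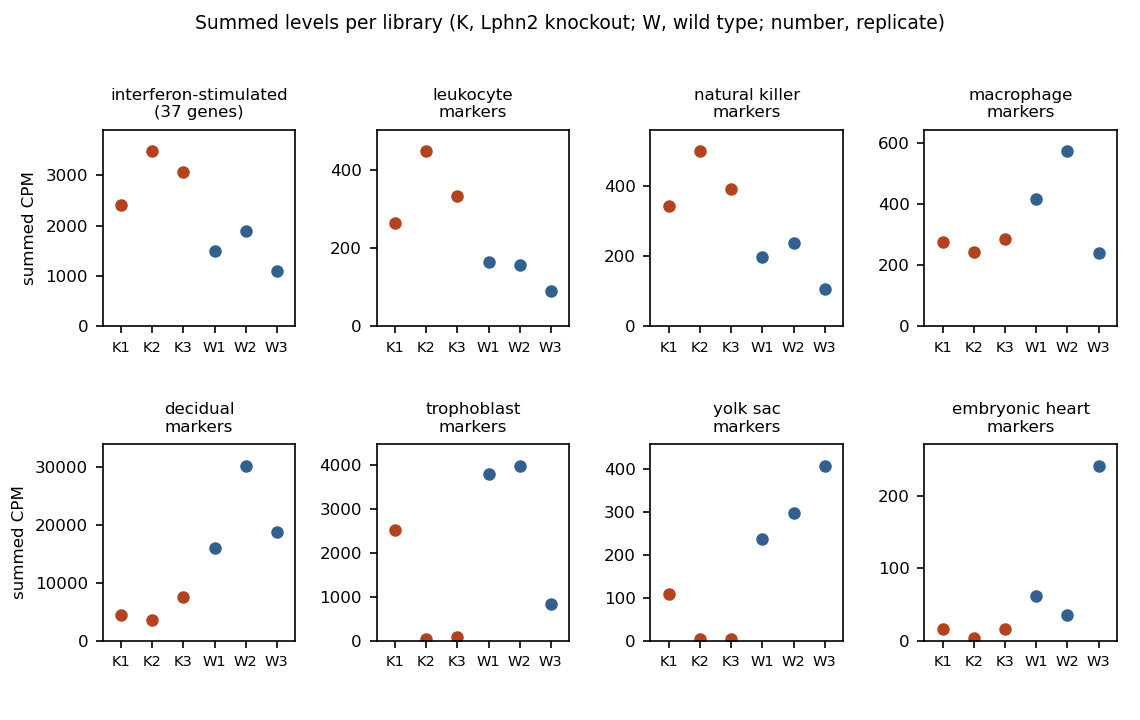
Summed CPM (y axes from 0) of the interferon-stimulated genes and of 7 marker lists in knockout replicates 1 to 3 (K1 to K3, left in each panel) and wild type replicates 1 to 3 (W1 to W3). The interferon-stimulated, leukocyte and natural killer panels share K2 as the highest and W3 as the lowest point. Heart and yolk sac markers are highest in W3, while W3 is the lowest wild type point for trophoblast markers.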

How the data were processed

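The authors deposited 1 table of whole-number counts per gene symbol for each of 6 libraries, made per the labels' protocols from 500 ng of total RNA with the Lexogen QuantSeq kit. The tools named in the submitters' processing notes are Bowtie2 and edgeR, and the build is mm10. No version, counting program, annotation or rule for strand and for multiply matching reads is given there. The deposited counts are whole numbers with a different total in each library, so they were taken as raw.

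Genes were kept with filterByExpr (minimum count 10), libraries scaled by TMM, and the groups compared in edgeR 4.0.16 (R 4.3.3) with its quasi-likelihood test, with no covariate and Benjamini-Hochberg adjustment over all 13848 genes (threshold 0.05). Standard errors are the fold change divided by the root of the F statistic. DESeq2 1.42.0 and limma-voom (limma 3.58.1) were alternatives, beside other scalings and filters, the replicate number as a block, removal of the common divisor of a gene's counts, and each library left out. Library deviations use log2 CPM with a prior count of 2. Gene positions are from GENCODE M21 (mm10). Figures used matplotlib 3.10.9.

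The members and lists were chosen with earlier results of these data known. Every member is named. Values in each library are given for members with an unadjusted p under 0.05, with no overlap between groups, or with the highest level of their role group, and for other lists a level or a log2 fold change is given for the 3 genes with the smallest p or the first 2 markers. A few results are not reported here. Of the 37 genes, 12 have annotated exons that overlap another gene. The 6 counts of 9 share a divisor above 1, namely Irf7, Irf8, Irf9, Ifitm1, Trim21, Oas1g, Mx1, Mx2 and Adar. Each count total limits precision, and counting error is part of the spread between samples.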

Additional observations from a re-analysis of the deposited data

How the results depend on the processing

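The 36 genes kept a positive median under every alternative, at 0.83 to 1.16 with each library left out and 0.56 with knockout replicate 1 alone against wild type, where the lone sample is assumed to vary like the wild type. With that library alone, Ifitm2 turned negative (-0.27) and became the 1 gene lower without overlap. The number higher without overlap was 26 of 32 under a stricter filter on low levels and otherwise 27 to 33, against 9.71% to 23.4% of all genes over all alternatives. With no filter on low counts the median of all genes was -0.13. Members called higher were 13 with DESeq2, 6 without knockout replicate 1 and 0 under the other alternatives. With each library left out they ranged from 0 to 6, and adjusted p values of single members reached 0.999 with knockout replicate 1 alone. Over all genes, DESeq2 called 470 higher and 387 lower. Leaving out a library gave 0 to 289 higher and 0 to 528 lower, both maxima without knockout replicate 1, with 11 lower without wild type replicate 2 and 0 without wild type replicate 1 or knockout replicate 2 or 3. Knockout replicate 1 alone also gave 0. The cause was not tested, beyond the fewer samples of these fits. The comparison among libraries whose code begins with 45, without wild type replicate 1, had a median of 0.996 and 29 genes higher without overlap. With the replicate block, 0 genes were called in either direction, and the median was 1.09. Deviations of same-numbered samples correlated at 0.13, -0.02 and 0.07 over genes, against -0.11 to 0.07 for samples with different numbers. With so few samples these values cannot decide whether the numbers pair the samples, and the labels do not say what a number marks. Low counts limit Oas3, Mx1 and Mx2.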

Other observations

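Some relatives outside the set were measured in the same fit and are named after their values were seen. Ifi27, a mitochondrial interferon-induced gene, stood at 202 ± 46.8 CPM in knockout and 96.2 ± 26.5 CPM in wild type libraries (SD, n = 3 each; log2 fold change 1.07, edgeR adjusted p = 0.176). Oasl1, a relative of Oasl2 that restrains Irf7 translation in the mouse, stood at 4.85 ± 2.15 CPM in knockout and 1.51 ± 0.416 CPM in wild type libraries (1.69, edgeR adjusted p = 0.191). Ifi27l2a stood at 7.46 ± 1.41 CPM in knockout and 9.25 ± 4.71 CPM in wild type libraries and Oas1c at 2.09 ± 1.01 CPM in knockout and 2.30 ± 1.04 CPM in wild type libraries, with log2 fold changes of -0.31 and -0.12, smaller than their standard errors.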
